A study of Mus musculus with 2 samples.

Results

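The genes described are the receptors and the cytosolic binding proteins of retinoic acid: Rara, Rarb and Rarg, Rxra, Rxrb and Rxrg, and Crabp1 and Crabp2. They were taken by name, and every probe set whose platform annotation gives exactly 1 gene symbol from these 8 was used. That gave 8 probe sets for 7 of the 8 genes, out of 8251 genes on the array. No probe set carried the symbol Rarb alone in the annotation used here. Expression was compared between K5 knockout skin (K5-/-, no keratin 5) and wild type skin of newborn mice. Keratin 5 is a structural filament protein of basal keratinocytes, and its loss is used as a model of the blistering disorder epidermolysis bullosa simplex. Skin of 6 animals per group, collected at birth, was frozen and its RNA pooled, and each pool was read on 1 array. The labels name the source as epidermis and the samples as skin, and they give neither the strain nor the way the allele was made.

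With 1 array per group there was no replicate spread and no test. Every difference below is between 2 pooled samples, and values are MAS5 signals, the summary that Affymetrix software makes of the probes of a probe set on a linear scale. Signals under a floor of 246.7 units, the 40th percentile of all values, were taken as not measured. A ratio is the log2 of the knockout signal over the wild type signal. Of 12422 probe sets, 7792 were above the floor on at least 1 array, with a median log2 ratio of 0.04 and a central 95% between -0.75 and 0.85. Probe sets of the same gene differed in their log2 ratio with a standard deviation of 0.30 over 838 genes. No direct measure of technical error was available. Taken within the same 2 arrays, this spread holds no variation between animals and no error shared by a whole array. It can also hold differences between transcripts of a gene, so multiples of it are a rough yardstick of size and not a test. The targeted gene could not check the labels, since Krt5 had signals of 81.2 in K5 knockout skin and 46.6 in wild type skin, both under the floor. A signal under the floor thus need not mean an absent transcript.

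Retinoic acid is made in cells from vitamin A and acts through nuclear receptors. An RAR binds all-trans retinoic acid and sits on DNA as a pair with an RXR, which also pairs with the receptors for vitamin D, thyroid hormone, fatty acids and oxysterols. In the skin, RARG is the prominent RAR and RXRA the prominent RXR of the epidermis, and retinoids alter keratinocyte growth and cornification. CRABP2 carries retinoic acid to the RARs in the nucleus, whereas CRABP1 has been linked to its breakdown in the cytosol.

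The DNA element that these receptors bind is a direct repeat of a 6-base half-site. Its textbook example lies 53 bases before the annotated start of Rarb, at chr14:16575513-16575529 on the minus strand of GRCm38.p6, and is shown because it is the element through which retinoic acid induces an RAR gene. The capitals mark the half-sites and the lower case the spacer of 5 bases.
Rarb element: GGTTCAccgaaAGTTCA
Windows of 250 bases before the annotated start are shown for the members with the lowest and the highest ratio, Crabp1 at chr9:54764498-54764747 on the plus strand and the more upstream of the 2 starts of Rarg at chr15:102257523-102257772 on the minus strand. Sequences are from RefSeq on GRCm38.p6, and Crabp2 had no entry. Capitals mark matches, on either strand, to the half-site AGGTCA with its variant AGTTCA, to the half-site GGGTCA with its variant GGTTCA, to the GC box with the letters GGGCGG and to the TATA motif with the letters TATAAA.
Crabp1 upstream: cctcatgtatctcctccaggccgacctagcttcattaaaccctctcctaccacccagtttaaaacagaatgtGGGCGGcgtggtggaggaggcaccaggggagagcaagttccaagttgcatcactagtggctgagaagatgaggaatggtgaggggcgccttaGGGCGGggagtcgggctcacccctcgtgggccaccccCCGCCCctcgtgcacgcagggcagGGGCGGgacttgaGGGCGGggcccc
Rarg upstream: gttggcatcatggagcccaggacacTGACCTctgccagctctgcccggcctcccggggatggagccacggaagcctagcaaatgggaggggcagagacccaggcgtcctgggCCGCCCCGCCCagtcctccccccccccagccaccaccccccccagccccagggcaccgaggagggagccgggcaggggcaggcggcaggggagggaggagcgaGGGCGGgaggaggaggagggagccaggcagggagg
The Crabp1 window held 5 GC boxes and 0 half-sites. The Rarg window held 3 GC boxes, 2 of them overlapping, and 1 half-site. The window of its other start, at chr15:102246501-102246750, held 0 GC boxes and 0 half-sites and is not printed because it has no match to mark. Over all 14 windows of the 7 genes with an entry, some of which overlap, 57.1% held a GC box against 32.7% of 32851 mouse windows, and 42.9% held a half-site against 38.6%. A direct repeat of half-sites spaced by 5 bases was found in 1 of the 14, that of Rarb, against 0.0883% of all windows. This match is the textbook element printed above, known before the search, so its share says nothing about the members. Repeats spaced by 1 or 2 bases were found in 0 of the 14, against 0.164% and 0.174%. These matches describe letters and do not show binding.

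Among the receptors, Rarg had a higher signal in knockout skin, while Rara, Rxra and Rxrb read nearly the same on both arrays. Among the binding proteins, Crabp2 was higher and Crabp1 lower. Of the 7 measured probe sets, which belong to 6 genes, 4 read higher and 3 lower, and 0 were 2-fold higher or 2-fold lower. Over all measured probe sets, 1.54% were past 2-fold on the higher side and 0.744% on the lower side, so a count of 0 among 7 is near the background. For each of the 7, the ratio lay inside the central 95% of the 500 probe sets nearest to it in mean signal.

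**Figure D1:**
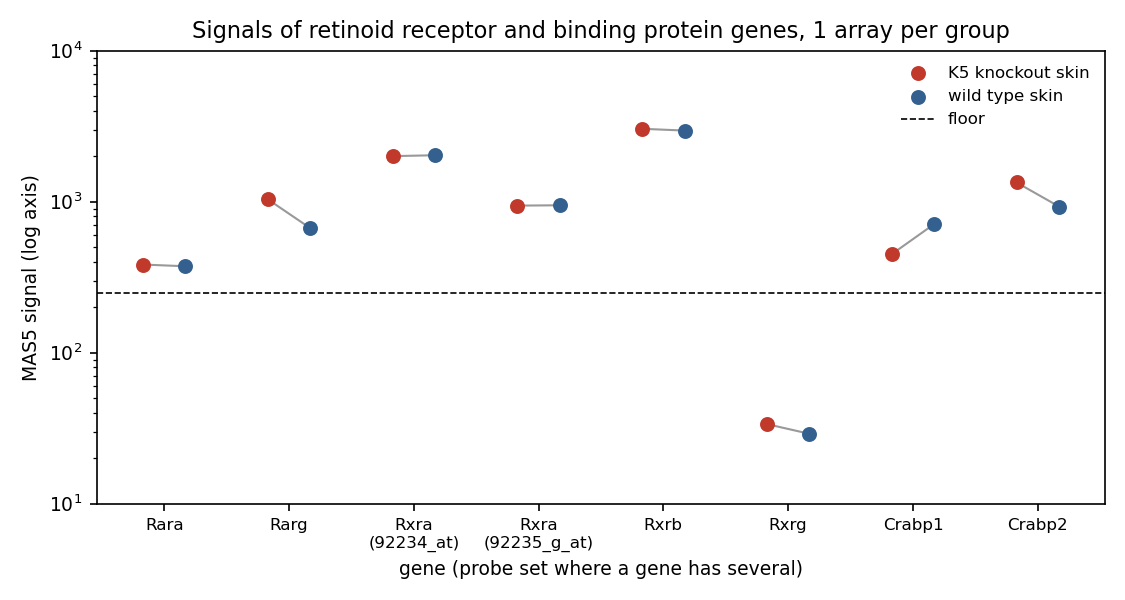
MAS5 signal (log axis) of each probe set on the K5 knockout array (red, left) and the wild type array (blue, right), 1 array per group, with the floor of 246.7 as a dashed line. Rarg and Crabp2 lie higher in the knockout, Crabp1 lies lower, and Rxrg is under the floor on both arrays.

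Rarg, the retinoic acid receptor most prominent in epidermis, read 1037 in knockout skin and 668 in wild type skin. The knockout signal was 1.55-fold the wild type signal, a log2 ratio of 0.63, which is 2.13 times the standard deviation between probe sets of one gene. Of the 500 probe sets of like signal, 475 had a lower ratio and 46 differed by at least as much in either direction. The ratio of Rarg was between 0.49 and 0.63 under every other floor and scaling tried.

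Rara, the widely expressed retinoic acid receptor, read 383 in knockout skin and 373 in wild type skin. Its log2 ratio of 0.04 was at the median of all probe sets, and its sign turned with the scaling, from -0.09 with quantile normalization to 0.02 with a pseudocount in place of the floor. The Rara signal was 1.55 times the floor in knockout skin and 1.51 times in wild type skin. Set against Rara, the log2 ratio of Rarg was higher by 0.60, where the spread between probe sets of one gene gives a standard deviation of 0.42 for such a difference.

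Rxra, the main RXR of the epidermis, was read by 2 probe sets, which gave the same picture. One read 2003 in knockout skin and 2031 in wild type skin, a log2 ratio of -0.02. The other, which is not a plain probe set by its suffix, read 942 in knockout skin and 947 in wild type skin, a log2 ratio of -0.0074. The ratios differed by 0.013, where the spread between probe sets of one gene gives a standard deviation of 0.42 for such a difference. Whether the 2 probe sets share probes was not checked, so they may not be independent readings. Both ratios kept their sign under every other floor and scaling, down to -0.07. The arrays thus held nearly equal Rxra signals.

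Rxrb, the broadly expressed RXR, read 3041 in knockout skin and 2959 in wild type skin. Its log2 ratio was 0.04, and -0.01 with each array scaled to its median. Rxrg, which is known from muscle, brain and pituitary, read 33.6 in knockout skin and 29.0 in wild type skin, under the floor on both arrays, so it has no ratio. Skeletal muscle was present in the pools, with 13 of 15 muscle markers measured. All 13 read higher in the knockout, against 53.9% of all measured genes, and their median log2 ratio was 0.24. Among them, Actn2 was above the floor in knockout skin only.

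**Figure D2:**
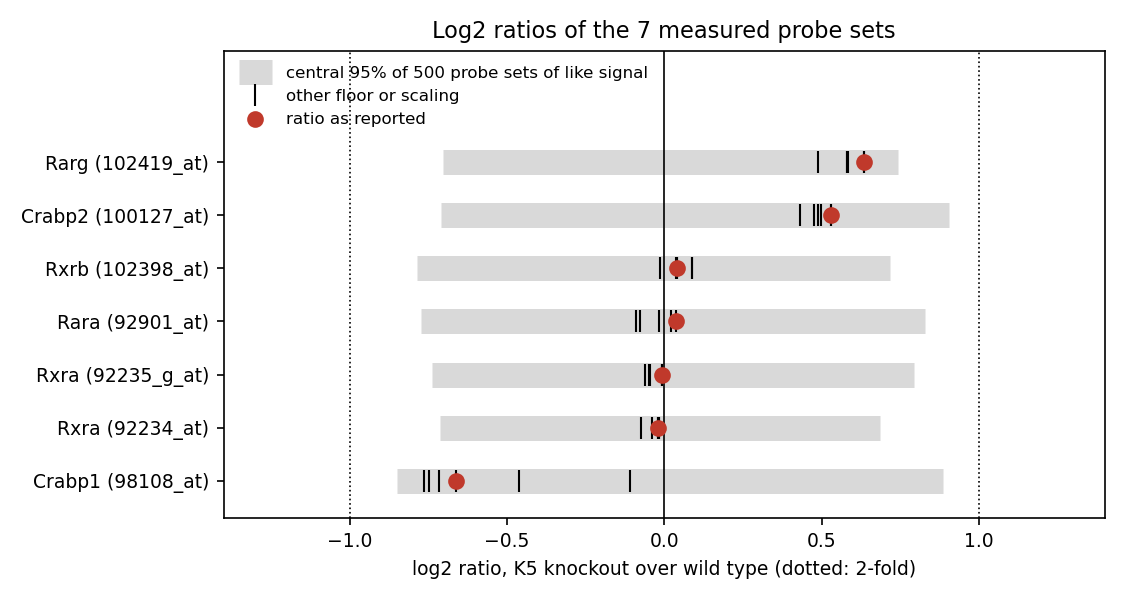
Log2 ratio of K5 knockout over wild type for the 7 measured probe sets (red), with the values under other floors and scalings (black ticks), the central 95% of the 500 probe sets nearest in signal (grey) and 2-fold as dotted lines. Every reported ratio lies within its grey band, and Crabp1 moves most with the setting, to -0.11 at the stricter floor.

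Crabp2, the carrier that delivers retinoic acid to the RARs and whose gene retinoic acid induces in human skin, read 1341 in knockout skin and 929 in wild type skin. The signal was 1.44-fold higher in the knockout, a log2 ratio of 0.53 or 1.78 standard deviations between probe sets of one gene. Of the 500 probe sets of like signal, 442 had a lower ratio and 81 differed by at least as much in either direction. Other floors and scalings gave 0.43 to 0.53.

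Crabp1, the paralogous carrier, which marks dermal papilla cells and other dermal fibroblasts, read 449 in knockout skin and 711 in wild type skin. The wild type signal was 1.58-fold the knockout signal, a log2 ratio of -0.66 or -2.23 standard deviations. Of the 500 probe sets of like signal, 20 had a lower ratio and 62 differed by at least as much in either direction. The knockout signal was 1.82 times the floor, and at a stricter floor of 660 units, the 60th percentile, the knockout signal lay under the floor and only a bound of -0.11 remained.

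The carriers therefore lay on opposite sides of 0. The change of Crabp2 relative to Crabp1 was 2.28-fold, a log2 difference of 1.19, with a standard deviation of 0.42 expected from the spread between probe sets of one gene. It depended on the processing. With a pseudocount in place of the floor the log2 ratios were 0.43 for Crabp2 and -0.46 for Crabp1. At the stricter floor only the bound of -0.11 remained for Crabp1. This pair was set side by side after its values were seen, and the difference has no replicate behind it. Whether probes of one carrier bind the transcript of the other was not tested.

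Markers of skin cell types differed between the pools as well, and their part in these ratios was not tested. The counts below stand beside a share of 53.9% higher over all measured genes, and several lists hold few genes. In bulk tissue fewer cells of a type and less RNA per cell cannot be told apart. For Crabp1, the 6 other dermal papilla markers split into 4 higher and 2 lower, with a median log2 ratio of 0.01, from Vcan at -0.21 to Sox2 at 0.54. With the mean over the probe sets of a gene, an alternative chosen after seeing the data, 2 were higher and 4 lower, with a median of -0.10. The dermal fibroblast markers were higher in 7 of 9, with a median of 0.27, and a summed signal of 205936 in knockout skin against 176606 in wild type skin. Their median was 0.07 with the mean over probe sets. For Rarg and Crabp2, suprabasal keratinocyte markers were higher in 5 of 7, with a median of 0.29 and summed signals of 190024 in knockout skin against 162489 in wild type skin. Basal keratinocyte markers were lower in 4 of 4 measured, with a median of -0.46 and summed signals of 7351 in knockout skin against 9943 in wild type skin, and Krt5, Krt14 and Krt15 were under the floor on both arrays. Hair follicle markers were higher in 11 of 12 (median 0.48), macrophage markers in 10 of 10 (0.54), endothelial markers in 5 of 7 (0.17), adipocyte markers in 4 of 5 (0.11) and red blood cell markers in 2 of 2 (0.31). Among the hair follicle markers, Krt34 was above the floor in knockout skin only. Melanocyte markers were higher in 1 of 4 (-0.04) and Schwann cell markers in 0 of 3 (-0.17). With the mean over probe sets, macrophage markers were higher in 9 of 10 (median 0.39) and Schwann cell markers in 1 of 3 (median -0.03).

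The genes that bring retinol into cells and store it read much alike on the arrays. Of 8 on the array, 4 were measured, with a median log2 ratio of 0.02 against 0.04 over all 5976 measured genes. Rbp4, the plasma carrier of retinol, had 1051 in knockout skin and 1062 in wild type skin, and Rbp2, a cellular retinol carrier best known from the gut, had 495 and 496 in the same order. Dgat1, which can esterify retinol, had a log2 ratio of 0.04 and Scarb1, a lipoprotein receptor that also takes up carotenoids, one of 0.22. Stra6, the receptor for plasma RBP4, was under the floor on both arrays, as were Ttr, Rlbp1 and Lrp2.

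Of the genes of retinoid metabolism, 10 of 18 were measured, with 6 higher and 4 lower, 0 past 2-fold, and a median log2 ratio of 0.10. Over all measured genes 1.54% were past 2-fold on the higher side and 0.703% on the lower side. Dhrs3, which reduces retinaldehyde back to retinol and which retinoic acid induces, read 1342 in knockout skin and 825 in wild type skin, a log2 ratio of 0.70. Adh1, an alcohol dehydrogenase able to oxidise retinol, read 5853 in knockout skin and 4461 in wild type skin, a ratio of 0.39. Dhrs3 and Adh1 thus lay on the higher side, by 1.63-fold and 1.31-fold.

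On the lower side, Dhrs4, another retinal reductase, read 706 in knockout skin and 986 in wild type skin, a log2 ratio of -0.48. Akr1b8, an aldo-keto reductase, had a ratio of -0.33, the glutathione-dependent alcohol dehydrogenase gene Adh5 one of -0.19 and Rdh11, a retinal reductase, one of -0.15. Retsat, the retinol saturase, had 0.24, Adh7, a retinol-active alcohol dehydrogenase of epithelia, 0.17, and Aldh1a7, an aldehyde dehydrogenase, 0.04. The brightest probe set of Rdh13 read 420 in knockout skin and 217, under the floor, in wild type skin. Its log2 ratio is thus a lower bound of 0.77 for that probe set. As the mean over its probe sets, Rdh13 had 0.53. The retinaldehyde dehydrogenase genes Aldh1a1, Aldh1a2 and Aldh1a3, which make retinoic acid, and Cyp26a1, which degrades it, were under the floor on both arrays. These 4 genes thus have no ratio.

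**Figure D3:**
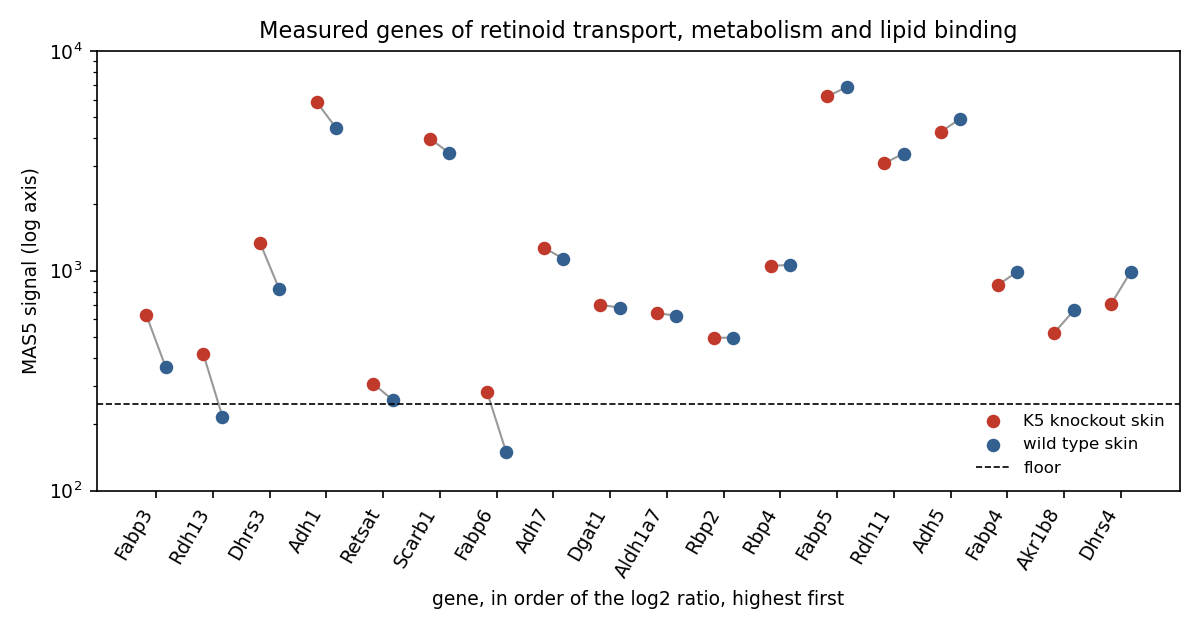
MAS5 signal (log axis) on the K5 knockout array (red, left) and the wild type array (blue, right) of the 18 measured genes of retinoid uptake, metabolism and intracellular lipid binding other than Crabp1 and Crabp2, ordered by log2 ratio from Fabp3 at 0.78 to Dhrs4 at -0.48. Rdh13 and Fabp6 lie under the floor (dashed) in the wild type only.

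CRABP1 and CRABP2 belong to a family of small intracellular lipid binding proteins, of which 7 of 11 genes on the array were measured, 3 higher and 4 lower, with a median log2 ratio of -0.0031. Within it Crabp1 had the lowest ratio. Fabp5, the epidermal fatty acid carrier that can also bind retinoic acid, read 6201 in knockout skin and 6839 in wild type skin, a ratio of -0.14. Fabp3, the carrier of heart and skeletal muscle, read 626 in knockout skin and 364 in wild type skin, a ratio of 0.78, the highest of the family. Fabp4, the carrier of adipocytes and macrophages, had -0.20, and Fabp6 a lower bound of 0.19.

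The partners of RXR include the members with the largest ratios among the measured nuclear receptors of the lists. Of 12 on the array 7 were measured, 5 higher and 2 lower, with a median log2 ratio of 0.09. Nr4a1, an immediate early orphan receptor able to pair with RXR, read 4844 in knockout skin and 892 in wild type skin, a ratio of 2.44. Vdr, the vitamin D receptor, read 249 in knockout skin and 518 in wild type skin, a ratio of -1.06. Its knockout signal was barely above the floor, and its ratio was -0.63 with a pseudocount in place of the floor. At the stricter floor of 660 units it was not measured. These were the 2 partners past 2-fold, 1 in each direction, where the shares over all measured genes were 1.54% on the higher side and 0.703% on the lower side.

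The other measured partners were closer to 0. Nr1i3 had a log2 ratio of 0.57, which was 0.27 as the mean over its probe sets. Nr1h3, the oxysterol receptor LXR alpha, had 0.25, and Pparg, the adipocyte regulator, 0.08. Thra, a thyroid hormone receptor, had -0.04, which was 0.06 as the mean over its probe sets. Thrb, the other thyroid hormone receptor, had a lower bound of 0.09, and -0.01 with the lowess correction. Ppara, Ppard, Nr1h4, Nr1i2 and Nr4a2 were under the floor on both arrays.

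Of 21 other nuclear receptors on the array, 10 were measured, 8 higher and 2 lower, with a median log2 ratio of 0.15 and 0 past 2-fold. The shares past 2-fold over all measured genes were 1.54% higher and 0.703% lower, so a count of 0 is near the background. Nr0b2, counted as higher, was above the floor in knockout skin only. Of the 9 above the floor on both arrays, 7 were higher and 2 lower. Nr3c1, the glucocorticoid receptor, read 408 in knockout skin and 251 in wild type skin, a ratio of 0.70. Nr2c1, an orphan receptor, had 0.60. Esrra, a regulator of mitochondrial genes, had 0.35 (0.22 as the mean over its probe sets) and Nr1d1, a clock repressor, 0.33. Its relative Nr1d2 read 675 in knockout skin and 959 in wild type skin, a ratio of -0.51, and Nr2f6 had -0.21. Nr2f2 and Nr5a1, at 0.11 and 0.12, were next above.

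**Figure D4:**
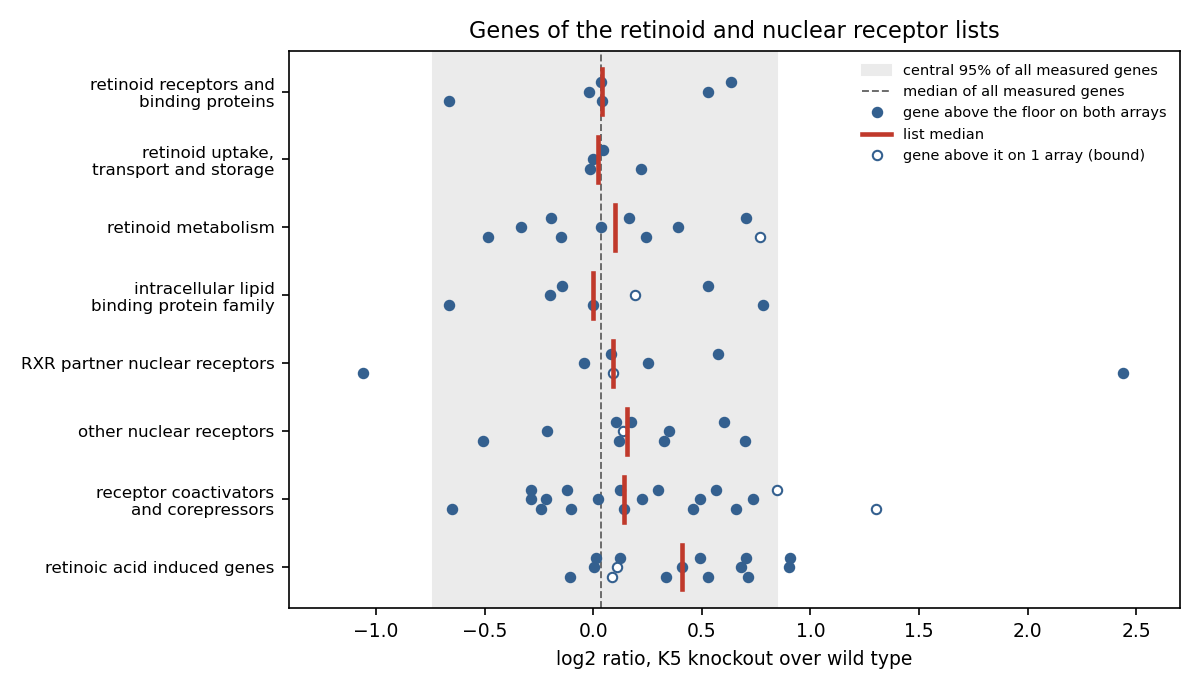
Log2 ratio of K5 knockout over wild type for each measured gene (blue, open where a gene was above the floor on 1 array only) of 8 lists, with list medians (red bars), the median of all measured genes (dashed) and their central 95% (grey). The retinoic acid induced genes have a median of 0.41 and the receptors and binding proteins one of 0.04. Nr4a1 at 2.44 is the highest value and Vdr at -1.06 the lowest.

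Of the coactivators and corepressors through which RARs and other receptors act, 19 of 22 on the array were measured, 12 higher and 7 lower, with a median log2 ratio of 0.14. Med1, the Mediator subunit that nuclear receptors contact, read 607 in knockout skin and 125, under the floor, in wild type skin, so that it was at least 2.46-fold higher, and it was the 1 gene of the list past 2-fold, against 1.54% of all measured genes on the higher side. Of the 17 coregulator genes with both signals over the floor, 0 were past 2-fold. Over all 5518 such genes, 76 were 2-fold higher and 36 were 2-fold lower. Kat2b, a histone acetyltransferase, had 0.74, Hdac3, the deacetylase of the NCOR complexes, 0.66, Med12 0.56 and the corepressor gene Nrip1 0.49. Prmt1, an arginine methyltransferase, read 4477 in knockout skin and 7031 in wild type skin, a ratio of -0.65. Hdac1 and Tbl1xr1 had -0.29 each, and Ncoa1, a p160 coactivator, -0.24.

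A list of genes known to be induced by retinoic acid in various cells, which includes Crabp2, read mostly higher in knockout skin. The list was chosen with earlier results of these data known, so its counts beside the background are descriptive only. Of 23 on the array 15 were measured, 14 higher and 1 lower, with a median log2 ratio of 0.41 against 0.04 over all measured genes, of which 53.9% were higher. None was 2-fold different, which is near the background of 1.54% higher and 0.703% lower over all measured genes. Among the 13 above the floor on both arrays 12 were higher, with a median of 0.49, and without Crabp2 the median of the list was 0.37. With quantile normalization 11 of 14 were higher, and with the lowess correction or scaling to the median 12 of 15 were.

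Hbegf, an EGF family ligand, read 670 in knockout skin and 357 in wild type skin, a log2 ratio of 0.91. At the stricter floor only a bound of 0.02 remained for it. Bhlhe40, a transcriptional repressor, read 1713 in knockout skin and 916 in wild type skin, a ratio of 0.90, and Pdlim7 had 0.71, which was 0.36 as the mean over its probe sets. Tgm2, the tissue transglutaminase, had -0.11, and Zfp703 and the homeobox gene Hoxb5 0.01 each. Ccnd3, a cyclin, had 0.13.

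Dhrs3 and Crabp2, both induced by retinoic acid, were measured, with log2 ratios of 0.70 and 0.53. Some other genes that serve as close readouts of retinoic acid were not measured. Cyp26a1 read 12.8 in knockout skin and 31.3 in wild type skin, and Stra6 read 19.2 and 13.1 in the same order. Rarb, Cyp26b1 and Lrat had no probe set with their symbol alone. Stra8, Cdx1 and Hoxb1 were also under the floor on both arrays. Hbegf and Bhlhe40 are also known to respond to growth factor and stress signals, and the immediate early gene Nr4a1 was 5.43-fold higher on the same array. The part of such signals in the list was not tested.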

How the data were processed

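The deposited values are intensities, 1 MAS5 signal per probe set on a linear scale, per the submitters' processing notes. Software version, scaling target and detection calls are not given in the sources used here. Biotinylated cRNA was made from 2 µg of pooled total RNA, per the labels' protocols. From the deposited intensities, both arrays were brought to a shared 2% trimmed mean, computed from 12422 probe sets without the 66 controls, signals under the 40th percentile were raised to it, and log2 was taken. Genes were named from the 10833 probe sets with 1 symbol. Members are given by probe set, and listed genes by their brightest one. Calculations used Python 3.11.15 and pandas 2.3.3 and were checked on simulated arrays with known folds. The simulated folds were past 2-fold and lay in the brighter probe sets. The check thus does not cover ratios as small as those of the members.

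No test was possible with 1 array per group, and the number of arrays limits the precision. The members and the gene lists were chosen with earlier results of these data known. Named were all members, all measured uptake and metabolism genes, every gene past 2-fold in the retinoid and nuclear receptor lists, the 4 highest and 4 lowest of each of these lists where both signals exceeded the floor, and, beyond this rule and after their values were seen, genes at or near the floor and a few cell type markers, whose lists are otherwise given as counts. Alternatives were other floors, a pseudocount, quantile normalization, a lowess correction, scaling to the median, and other choices of probe set.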

Additional observations from a re-analysis of the deposited data

How the results depend on the processing

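No paired analysis was possible because each group has 1 array, and leaving out a replicate was not possible for the same reason. Of 41 alternative log2 ratios of the 7 measured probe sets, 40 moved by less than 0.30. The exception was the bound of -0.11 for Crabp1 at the stricter floor (60th percentile), where Rara was not measured. In no alternative was a member 2-fold different. Probe sets 2-fold different over the whole array numbered 120 higher and 58 lower. They numbered 299 and 145 at a lower floor (25th percentile), 53 and 20 at the stricter one, and 52 and 22 with a pseudocount. The share of higher calls was 67.4%, and 56.5%, 56.1% and 57.1% with quantile normalization, the lowess correction and scaling to the median (105 higher and 81, 82 and 79 lower). At the lower floor, list medians were 0.20 for retinoid metabolism, 0.57 for RXR partners (11 genes) and 0.49 for retinoic acid induced genes. At the stricter floor they were -0.12 for the lipid binding family and 1.20 for RXR partners (2 genes). The retinoic acid induced genes had a median of 0.49 both with plain probe sets only and with genes above the floor on both arrays only. Signal over background limits Rara and Crabp1 most, which were under 3 times the floor on both arrays.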
